A study of Mus musculus with 9 samples.

Results

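The respiratory chain and the ATP synthase were examined in cells sorted as endothelial from mouse retinas. A probe set, a group of oligonucleotides on these arrays designed against a transcript or related transcripts, was a member when the platform annotation gave it exactly 1 gene symbol that names a nuclear-encoded subunit of complexes I to V, cytochrome c, or an assembly factor whose symbol begins with Ndufaf or Sdhaf. The lung-type subunit Cox4i2, Ndufa4l2 and pseudogene symbols were left out. This gave 156 probe sets for 86 genes, of 36701 probe sets in all, of which array design A held 103, B held 16 and C held 37. Of these, 136 probe sets report subunits of the complexes, 1 reports cytochrome c and 19 report assembly factors. The 136 include 1 for Cox7a2l, a supercomplex factor that was counted under complex IV. Atp5b, Atp5g3 and Ndufa4 are not analysed here.

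All 9 arrays carried RNA of GFP-positive cells sorted at postnatal day 8 from pooled retinas of homozygous Tie2-GFP mice, which express GFP under the endothelial Tie2 promoter. The pups had received APB5, an antibody that blocks PDGFRb, the receptor through which pericytes are recruited to vessels, from day 0 to day 7. There were 3 replicates on each of the 3 complementary Affymetrix designs A, B and C, and no array carried cells of untreated mice. The effect of the antibody therefore cannot be read here, no contrast between groups was tested, and the results describe how high members lay within their arrays and how far replicates spread. Whether the replicates were independent cell pools is not stated in the labels. Each SD below is therefore a spread between arrays and can be technical. The Tie2 promoter is also active in some blood cells.

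The respiratory chain sits in the inner mitochondrial membrane. Complex I takes electrons from NADH and complex II from succinate, complex III passes them to the small soluble protein cytochrome c, and complex IV hands them to oxygen. The proton gradient built along the way drives complex V, the ATP synthase. Retinal endothelial cells are known for a strong reliance on glycolysis, beside which their mitochondria still respire.

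The sort was checked on marker genes. Of 17 probe sets for 10 endothelial markers, 12 lay above the 75th percentile of their array on all 3 replicates, and their median percentile was 95.8. Pecam1 (percentile 52.4 ± 2.5) and Egfl7 (30.5 ± 4.6, SD, n = 3 each) were endothelial markers that did not. None of 11 mural or 6 photoreceptor probe sets passed that threshold, and 1 of 9 neuronal, 1 of 10 glial, 1 of 6 microglial and 1 of 23 probe sets for genes of unrelated tissues did. The median percentiles of these lists were 39.6, 45.0, 37.6, 36.0, 46.3 and 30.2, against 50.0 for all probe sets. Among all probe sets 22.6 percent passed that threshold, and most of these lists are short. The passing ones were 1 probe set each of Tubb3 (percentile 77.7), Glul (81.5), Csf1r (87.2) and Prm1 (90.3). Calb2 of the neuronal list, at 75.2, and Crx of the photoreceptor list, at 70.8, did not pass. The 2 erythroid probe sets, for Hba-a1 and Alas2, lay at percentiles 75.1 and 51.2 without passing. What part other cells have in the values below was not tested.

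Members were more often high, and less often low, than all probe sets of the arrays. A probe set was called high when it lay above the 75th percentile of its array on all 3 arrays of its design, and low when it lay below the 40th percentile on all 3. Of the 156 member probe sets, 64 (41.0%) were high, against 22.6 percent of all probe sets and 24.2 percent of those with 1 gene symbol. There were 40 low members (25.6%), against 36.3 percent of all probe sets and 34.4 percent of those with 1 symbol, and 52 members lay between. Within design A, 48 of 103 members (46.6%) were high, against 22.9 percent of all probe sets. Within design B, 6 of 16 members (37.5%) were high, against 22.4 percent of all. Within design C, 10 of 37 members (27.0%) were high, against 22.5 percent of all, a share near the background. The median percentile of members was 64.9 ± 0.35 (SD of the medians in the 3 replicates), against 50.0 for all probe sets. The medians within replicates 1 to 3 were 65.8, 65.4 and 66.1, above the median of the mean percentiles.

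Counted by gene, 52 of 86 member genes (60.5%) had at least 1 high probe set, against 36.0% of the 15964 genes with 1 symbol. Only low probe sets were found for 8 member genes (9.30%), against 22.1% of all genes. Both sets had nearly the same number of probe sets for each gene, 1.81 for members and 1.82 for all. Probe sets differ in how well they hybridise and percentiles do not rank genes by transcript level. A transcript whose probe set is low may still be present. The designs were ranked separately here, and a percentile is a position among the probe sets of its own design.

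**Figure D1:**
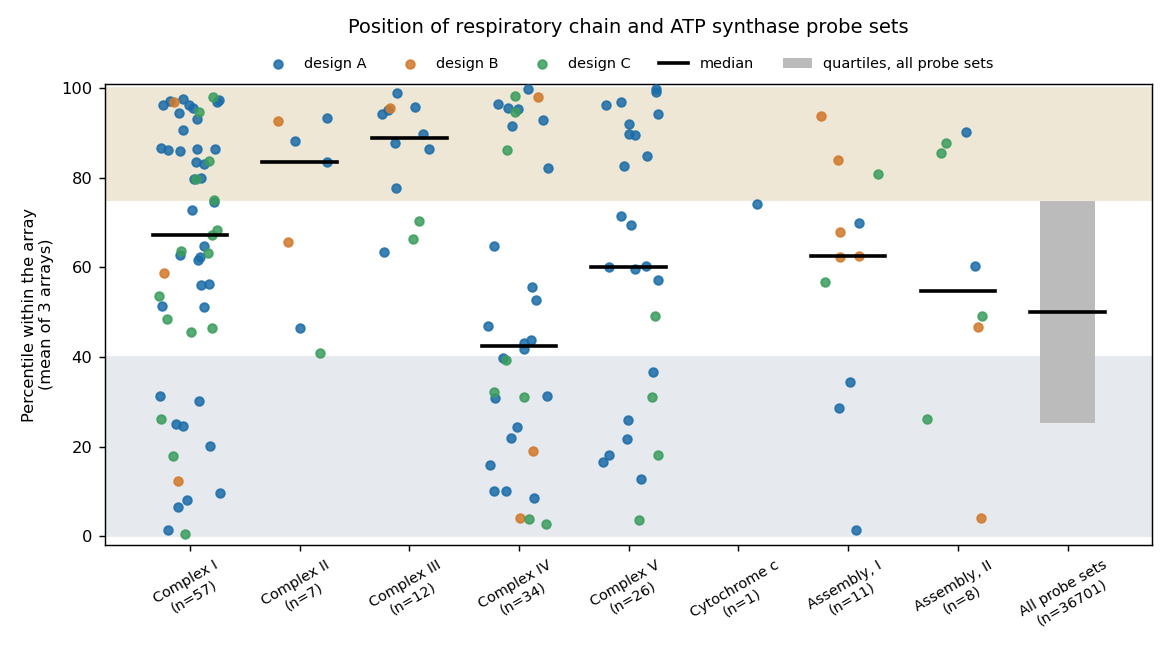
Percentile within the array (mean of the 3 arrays of a design) of each member probe set, by complex, with points coloured by design and black bars for medians. The tan band marks percentiles above 75 and the blue-grey band those below 40, and the grey bar at the right spans the quartiles of all 36701 probe sets. The 12 probe sets of complex III all lie above percentile 63. Complex IV has no probe set between percentiles 64.9 and 82.3, and complex V has none between 71.4 and 82.7.

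Complex III, the cytochrome bc1 complex, stood high with most of its probe sets. Of its 12 probe sets, 9 were high (75%) and none was low, against 22.6 percent high and 36.3 percent low among all probe sets, with a median percentile of 88.8 ± 0.32 (SD over replicates, n = 3), and 7 of 8 genes had a high probe set. Both core proteins, Uqcrc1 and Uqcrc2, were high with every probe set. Uqcrc1 read 247, 288 and 228 in replicates 1 to 3 on design A, and 332, 336 and 293 on design B. Uqcrc2 read 413, 427 and 401. Cyc1, the haem-bearing cytochrome c1 that reduces cytochrome c, read 1359, 1459 and 1205 with 1 probe set and 195, 224 and 215 with the other. All of these values lay above the array's 75th percentile, which was between 97.1 and 102 intensity units on design A.

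The small subunits of complex III were Uqcrb, Uqcrq, Uqcr10, Uqcrh and Uqcr11. Uqcrb, which binds ubiquinone, read 547, 538 and 527, and Uqcrq read 472, 481 and 481. These 2 genes varied little, with log2 ranges between replicates of 0.078 and 0.0075. Uqcr10 read 225, 184 and 167, also high. Uqcrh, the acidic hinge protein, was high on design A at 111, 122 and 111, but its 2 probe sets on design C stayed at percentiles 70.5 ± 2.2 and 66.5 ± 2.3. Uqcr11 had the lowest mean of the complex, with 56.3, 69.7 and 68.0, at percentile 63.4 ± 3.5 (SD, n = 3).

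Complex II, succinate dehydrogenase, is the only complex that belongs both to the respiratory chain and to the citric acid cycle. Of its 7 probe sets 4 were high (57.1%) and none was low, beside the same background, with a median percentile of 83.6 ± 0.58. Sdhb, the iron-sulphur subunit, read 345, 436 and 338 on design A and 238, 260 and 231 on design B, high on every array. The membrane anchors Sdhc and Sdhd read 160, 156 and 154, and 211, 210.2 and 235, on design A. Their second probe sets were lower, at percentile 65.8 ± 0.64 for Sdhc on design B and 41.0 ± 4.5 for Sdhd on design C. Sdha, the flavoprotein that oxidises succinate, read 39.6, 47.1 and 35.0 with its single probe set, at percentile 46.4 ± 6.1, close to the middle of the array.

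Complex I, NADH dehydrogenase, is the largest of the complexes and had 57 probe sets for 32 genes. Of these, 24 (42.1%) were high and 13 (22.8%) were low, against 22.6 and 36.3 percent of all probe sets, and the median percentile was 67.2 ± 1.6. The conserved core subunits, which carry the flavin and the iron-sulphur clusters, had a larger share of high probe sets than the accessory ones, on few probe sets and with no test of the difference. Of 10 core probe sets 7 were high (70%) and 1 was low, and each of the 6 core genes among the members had a high probe set. Of 47 accessory probe sets 17 were high (36.2%) and 12 were low. The core genes among the members are Ndufv1, Ndufv2 and Ndufs1, which accept electrons from NADH, and Ndufs3, Ndufs7 and Ndufs8, which lead them to ubiquinone.

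Ndufv1, the NADH-binding flavoprotein, read 515, 728 and 509.6. It was higher in replicate 2 than in the others, and high in all. Ndufv2 read 210, 178 and 170 with its plain probe set, and 206, 154 and 200.4 with the other. Ndufs1 read 327, 218 and 298 on design A, lowest in replicate 2, while its probe sets on design C read 72.3, 65.3 and 61.8, below the 75th percentile in replicate 3, and 14.3, 11.9 and 13.7, which is low. Ndufs3 had 332, 354 and 395 on design A, at percentile 93.1 ± 1.1, and 57.1, 53.7 and 53.9 on design B, at 58.7 ± 1.3. Ndufs7 was high at 390.3, 383 and 422 on design B, and Ndufs8 at 518, 424 and 415 on design C.

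Accessory subunits surround the core and are needed for assembly and stability. Ndufb5 was high at 885, 879.5 and 705. Ndufv3 had the lowest mean of complex I, with 10.7, 12.2 and 12.3 on design A, at percentile 8.05 ± 0.70. It was the only gene of the complex with no probe set outside the low class. Between these lay Ndufc2, a membrane arm subunit, which read 98.5, 35.1 and 89.7. Its replicate 2 lay at percentile 41.0, against 74.5 and 73.1 in the others, and its log2 range of 1.51 was the widest of the 109 members above the 40th percentile on all arrays. Ndufa6, a subunit of the matrix arm, read 56.4, 65.5 and 39.7 on design A, a log2 range of 0.73.

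The other accessory subunits of complex I spread over most of the array. Ndufa9, which lies near the ubiquinone site, read 676, 778 and 659 on design A and was high there, and 27.2, 30.2 and 32.3 on design C. Ndufa5, in the matrix arm, read 721, 633 and 640, and Ndufc1, in the membrane arm, read 390, 417 and 484 on design A and 78.2, 88.4 and 72.7 on design C. All of these except the second probe set of Ndufa9 were high. Ndufa13, also known as GRIM-19, was high at 179, 198.3 and 181, and Ndufb11 at 201, 199 and 168. Ndufs4, a subunit whose loss in mice gives an encephalopathy like Leigh syndrome, was low at 21.0, 19.2 and 19.9 on design A and read 45.4, 46.8 and 44.7 on design C, between the classes. Ndufb6 had no high probe set among 3, at 45.4, 45.6 and 45.2 and at 5.01, 4.11 and 5.46 on design A, and at 24.6, 30.4 and 32.8 on design C. Ndufb8, whose protein is often used as a marker of assembled complex I, lay just below the threshold at percentile 74.5 ± 0.60 on design A, with 68.4 ± 1.3 and 63.6 ± 4.1 on design C (SD, n = 3 each).

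Complex V, the ATP synthase, had 26 probe sets for 14 genes, of which 10 (38.5%) were high and 8 (30.8%) low, against 22.6 and 36.3 percent of all probe sets, with a median percentile of 60.2 ± 2.4. Its catalytic F1 head faces the matrix, a membrane part called Fo conducts protons, and a stalk joins them. In the head, Atp5a1, the alpha subunit, read 2491, 3080 and 2705, at percentile 99.8 ± 0.093, the highest member position measured. Atp5c1, the central gamma shaft, read 414, 439 and 411 with 1 probe set and 377, 152 and 357 with the other. The second of these fell to percentile 82.6 in replicate 2 alone, a log2 range of 1.33, while the first probe set of the same gene had a range of 0.099. Replicate 2 thus stood apart for 1 of the 2 probe sets of Atp5c1. Atp5d, the delta subunit of the central shaft, had 6 probe sets. Those marked as shared between related sequences read 231, 249 and 254, then 154, 182 and 176, and then 81.9, 86.7 and 88.2, and the first and second of them were high. The plain ones were low, at 14.6, 19.6 and 18.8 and at 18.7, 16.8 and 21.2. The remaining one, on design C, read 20.1, 15.0 and 26.3, at percentile 31.1 ± 10.1, neither high nor low.

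In the stalk, Atp5j, coupling factor 6, was high at 689, 627 and 667. Atp5o, the oligomycin sensitivity protein, was high at 294, 327 and 343. Atp5pb, the b subunit, was low at 21.8, 25.1 and 24.8, percentile 26.0 ± 2.2, with its single probe set. In the membrane part 3 of 13 probe sets were high (23.1%) and 5 were low (38.5%). These shares were near the 22.6 and 36.3 percent of all probe sets. Atp5mpl, a small proteolipid of the membrane part, read 538, 666 and 518, all high. Atp5j2, the f subunit, read 45.4, 26.9 and 27.0 on design C, where replicate 1 stood above the other 2, and 61.4, 62.8 and 41.1 on design A, where replicate 3 was lowest. Atp5k and Atp5l, the e and g subunits that help the enzyme form dimers, read 64.4, 57.3 and 54.1, and 58.7, 52.8 and 59.7, on design A. Both lay between the classes, and a second probe set of Atp5l was low at 16.5, 15.8 and 13.5.

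The proton-carrying ring of c subunits is encoded by several genes whose mature proteins are the same. Atp5g1 was low with both probe sets, at 20.8, 21.4 and 21.0 and at 32.6, 28.3 and 33.9. Atp5g2 read 165, 163 and 123 with a probe set marked as shared between related sequences, which was high, and 54.7, 71.2 and 51.9 with a plain one at percentile 60.2 ± 5.1. On design C, Atp5g2 was low at 11.7, 11.3 and 17.3. Cycs, cytochrome c itself, read 88.0, 109 and 94.4, at percentile 74.2 ± 2.1, below the 75th percentile in replicates 1 and 3 and above it in replicate 2.

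Complex IV, cytochrome c oxidase, had no probe set between percentiles 64.9 and 82.3. A like gap was seen in complex V, between 71.4 and 82.7. The median percentile of complex IV was 42.4 ± 2.6. Of its 34 probe sets 11 were high (32.4%) and 14 low (41.2%), against 22.6 percent high and 36.3 percent low among all probe sets. Several of its small subunits exist as pairs of isoforms, 1 used in most tissues and 1 restricted to heart and skeletal muscle, brown fat or testis. The 6 tissue-restricted genes, Cox6a2, Cox6b2, Cox7a1, Cox7b2, Cox8b and Cox8c, had 14 probe sets, none high and 9 low, with a median percentile of 31.2 ± 1.5. The 9 ubiquitous genes had 19 probe sets, 10 high and 5 low, with a median of 82.3 ± 0.45, and 8 of the 9 genes had at least 1 high probe set. Without the restricted isoforms, but with Cox7a2l, the median of the complex was 84.3, a setting added after the data had been seen. The difference between the isoform classes was not tested, because each position also depends on the probes.

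Among ubiquitous subunits, Cox5b, a zinc-binding subunit, read 443, 498 and 593, and Cox7b read 389, 346 and 319. Cox7a2 was high on both designs, with 143, 153 and 139 on design A and 110.4, 109 and 104 on design C. Its muscle counterpart Cox7a1 read 35.3, 43.9 and 42.8 on design A, at percentile 46.9 ± 4.1. Cox6a1 read 596, 591 and 607 on design A, but a second probe set on design B was low at 18.4, 18.5 and 20.0. Cox6a2, its muscle isoform, was low at 24.7, 25.4 and 31.6 on design A. Cox7a2l, which joins complexes III and IV into supercomplexes and is no oxidase isoform, read 479, 614 and 474, all high.

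The other pairs gave the following values. Cox6b1 read 376, 238 and 308 on design A and 262, 220.4 and 224 on design C, all high, with a log2 range of 0.68 on design A. Its testis isoform Cox6b2 had 4 probe sets between percentiles 8.58 and 41.7, of which 2 were low and none was high. Cox7b2, another testis isoform, was low at 24.1, 17.6 and 19.1. Cox8a, the ubiquitous form, was low with its single probe set at 21.2, 23.8 and 23.3, and was the only ubiquitous gene without a high probe set. Cox8b, the muscle and brown fat form, read 46.7, 47.8 and 46.7 with 1 probe set and 17.9, 17.7 and 16.2 with the other. Cox8c, the testis form, had 5 probe sets, 4 of them low, between percentiles 2.72 and 55.7, and had the lowest mean of the complex. Cox4i1, the form of subunit 4 used in most tissues, had probe sets at percentiles 39.9 ± 2.1, 64.9 ± 2.6 and, on design B, 98.0 ± 0.59.

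**Figure D2:**
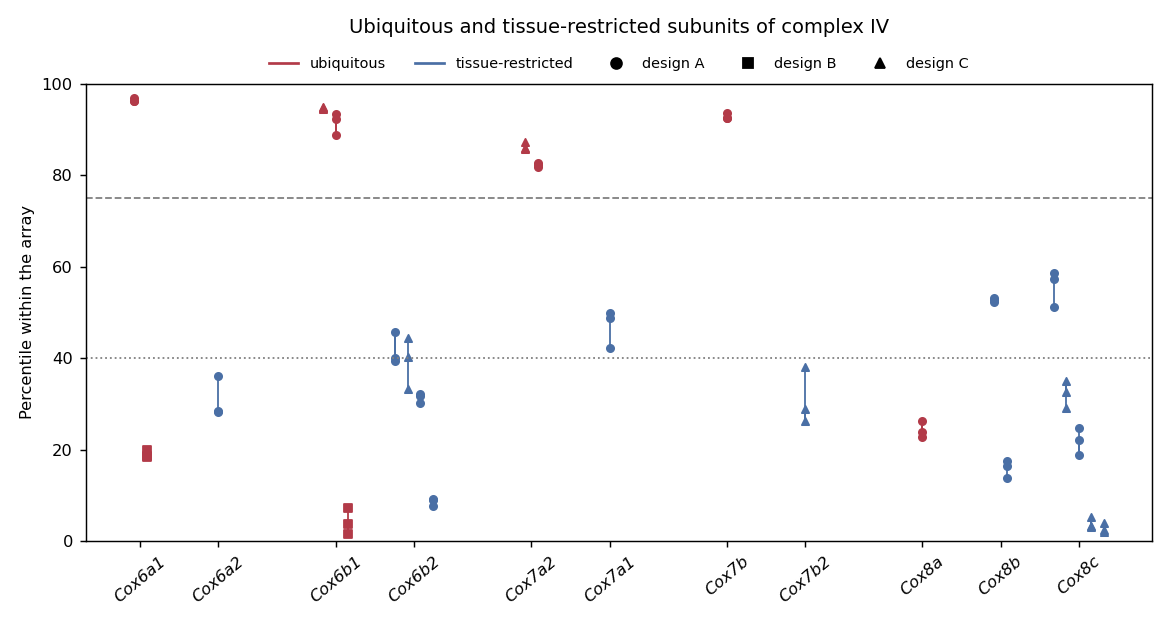
Percentile within the array of each probe set of the ubiquitous (red) and tissue-restricted (blue) complex IV isoforms, 3 points per probe set for the 3 replicates, with symbols for the array design. The dashed line is the 75th and the dotted line the 40th percentile. No blue point reaches the dashed line, and the red points of Cox8a lie below the dotted one.

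Promoters of 3 of these isoform pairs and of Cox6a1 are printed here to set the letters of the pairs side by side, with that of Uqcrc1 of complex III, whose probe sets were all high. They were chosen with their motif matches known. NRF1 and GABPA (also called NRF2) are transcription factors known for binding promoters of respiratory chain genes, YY1 is another, and SP1 is a general promoter factor. The letters searched on both strands were CGCATGCG for NRF1, CCGGAAG for GABPA, AAGATGGCG for YY1 and GGGCGG for SP1, and every match is in capitals, none overlapping another in these windows. Windows run from 250 bases before to 50 after the transcript start, as RefSeq gives them on GRCm38.p6, 5′ to 3′ on the strand of the gene.
Cox6a1: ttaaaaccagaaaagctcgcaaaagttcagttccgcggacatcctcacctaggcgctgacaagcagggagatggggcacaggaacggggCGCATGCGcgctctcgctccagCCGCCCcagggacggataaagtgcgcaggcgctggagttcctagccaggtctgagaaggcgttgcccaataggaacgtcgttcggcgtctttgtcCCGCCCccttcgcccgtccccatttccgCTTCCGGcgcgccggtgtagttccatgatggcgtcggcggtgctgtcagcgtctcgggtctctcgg
Cox6b1: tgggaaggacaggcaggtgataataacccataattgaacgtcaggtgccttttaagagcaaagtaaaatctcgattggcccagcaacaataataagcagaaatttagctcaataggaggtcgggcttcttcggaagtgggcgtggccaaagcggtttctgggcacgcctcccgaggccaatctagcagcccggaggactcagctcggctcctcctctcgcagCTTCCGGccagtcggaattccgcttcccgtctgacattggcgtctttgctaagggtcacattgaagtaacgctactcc
Cox6b2: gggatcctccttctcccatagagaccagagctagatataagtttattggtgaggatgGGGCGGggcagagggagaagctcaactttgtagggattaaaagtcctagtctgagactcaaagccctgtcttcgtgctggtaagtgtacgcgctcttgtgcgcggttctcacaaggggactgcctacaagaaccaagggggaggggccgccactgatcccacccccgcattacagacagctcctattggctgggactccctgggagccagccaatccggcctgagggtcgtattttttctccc
Cox7a2: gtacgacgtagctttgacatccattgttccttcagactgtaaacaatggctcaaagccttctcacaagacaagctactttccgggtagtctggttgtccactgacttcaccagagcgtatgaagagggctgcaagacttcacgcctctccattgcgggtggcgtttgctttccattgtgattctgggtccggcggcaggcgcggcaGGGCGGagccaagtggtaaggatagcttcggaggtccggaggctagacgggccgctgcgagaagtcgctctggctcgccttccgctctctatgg
Cox7a1: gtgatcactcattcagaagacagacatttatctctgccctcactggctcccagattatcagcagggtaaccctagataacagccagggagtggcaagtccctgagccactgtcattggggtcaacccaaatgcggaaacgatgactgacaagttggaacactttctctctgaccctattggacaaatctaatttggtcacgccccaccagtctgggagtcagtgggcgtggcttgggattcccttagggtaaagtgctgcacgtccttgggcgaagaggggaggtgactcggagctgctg
Cox8a: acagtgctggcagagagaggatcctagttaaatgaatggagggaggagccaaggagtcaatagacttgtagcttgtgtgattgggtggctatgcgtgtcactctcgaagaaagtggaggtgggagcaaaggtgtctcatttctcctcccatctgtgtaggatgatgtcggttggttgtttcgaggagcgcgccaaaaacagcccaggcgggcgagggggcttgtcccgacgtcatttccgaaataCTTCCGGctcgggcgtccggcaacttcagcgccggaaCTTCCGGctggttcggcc
Cox8b: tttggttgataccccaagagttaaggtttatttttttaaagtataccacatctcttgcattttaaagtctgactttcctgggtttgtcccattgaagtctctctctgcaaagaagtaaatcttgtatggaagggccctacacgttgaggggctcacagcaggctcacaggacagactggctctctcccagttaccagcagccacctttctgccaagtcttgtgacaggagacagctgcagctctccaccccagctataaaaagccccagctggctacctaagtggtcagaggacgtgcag
Uqcrc1: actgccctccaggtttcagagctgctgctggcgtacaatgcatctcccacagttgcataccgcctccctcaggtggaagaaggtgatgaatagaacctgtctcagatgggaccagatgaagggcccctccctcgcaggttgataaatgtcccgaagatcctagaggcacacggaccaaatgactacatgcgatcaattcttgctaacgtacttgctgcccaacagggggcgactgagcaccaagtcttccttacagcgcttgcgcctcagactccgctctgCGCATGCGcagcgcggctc

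These windows lie at chr5:115348909-115349208 for Cox6a1, chr9:79759804-79760103 for Cox7a2, chr19:7217567-7217866 for Cox8a and chr7:140900397-140900696 for Cox8b, all on the minus strand. Those of Cox7a1, at chr7:30183921-30184220, and of Uqcrc1, at chr9:108936398-108936697, are on the plus strand. The window of Cox6a1 holds 1 match for NRF1, 1 for GABPA and 2 for SP1, that of Cox7a2 holds 1 for SP1, and that of Cox8a holds 2 for GABPA. The windows of Cox7a1 and Cox8b hold none of the 4 motifs, and that of Uqcrc1 holds 1 for NRF1. Cox8a thus carried 2 GABPA matches while its probe set was low. The window of Cox6b1, at chr7:30626065-30626364 on the minus strand, holds 1 for GABPA, and that of Cox6b2, at chr7:4753045-4753344 on the minus strand, holds 1 for SP1. Over all isoforms with a window, SP1 letters were in 2 of 4 restricted windows (Cox6b2 and Cox7b2) and in 3 of 7 ubiquitous ones. GABPA letters were in none of the 4 restricted and in 3 of the 7 ubiquitous windows. Among windows of genes with 1 symbol on the arrays, 54.6% held SP1 and 13.6% held GABPA letters. With so few isoform windows, no difference between the classes was tested. The ubiquitous Cox5b and Cox7b held none of the 4 motifs. Each match is a description of letters in a window, and no binding was measured.

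Over all members, 71 of 86 genes matched the promoter table, with 76 windows. GABPA letters were found in 21 member windows (27.6%), against 13.6% of the 15981 windows of genes with 1 symbol on the arrays and 8.86% of all 32851 windows. YY1 letters were found in 7 (9.21%), against 2.34% of windows of array genes and 1.40% of all. NRF1 letters were found in 11 (14.5%), against 2.99% of windows of array genes and 1.87% of all. The word searched for NRF1 was shortened after a longer one had been counted, so its counts are a description only. SP1 letters were found in 38 (50.0%), against 54.6% of windows of array genes and 35.7% of all. Member genes with and without a high probe set were then set side by side. GABPA letters stood in 28.9% of 45 windows of genes with a high probe set and in 25.8% of 31 windows of the other member genes. NRF1 letters stood in 6 of those 45 windows (13.3%) and in 5 of those 31 (16.1%). By complex, NRF1 letters were in 1 of 31 windows of complex I, 0 of 3 of complex II, 2 of 4 of complex III, 1 of 12 of complex IV and 4 of 15 of complex V. The NRF1 share of complex I, 3.23%, was near the 2.99% of windows of array genes. YY1 letters were in 4 of 31 windows of complex I and 2 of 15 of complex V, and in none of the other 3 complexes. The remaining NRF1 and YY1 matches of members were in windows of assembly factors or cytochrome c.

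Assembly factors help build the complexes and leave them afterwards. The 7 Ndufaf genes had 11 probe sets, 3 high (27.3%) and 3 low, with a median percentile of 62.6 ± 3.0. The share of high ones was near the 24.2 percent of probe sets with 1 symbol. Ndufaf8 read 265, 251 and 280 on design B, all high. Ndufaf3 was high on design C at 77.4, 79.5 and 94.2 and lay at percentile 67.8 ± 1.3 on design B. Ndufaf5 read 72.3, 59.7 and 54.6 on design B, between the classes. Ndufaf4 was high on design B at 134, 120.4 and 153, but its probe sets on design A lay at percentiles 69.8 ± 0.71 and 1.36 ± 1.2. Ndufaf1 was low with both probe sets, at percentiles 34.4 ± 2.9 and 28.7 ± 0.57. The 4 Sdhaf genes, which mature succinate dehydrogenase, had 8 probe sets, 3 high (37.5%) and 2 low (25%), against 24.2 and 34.4 percent. Sdhaf2, which attaches the flavin to Sdha, was high with both probe sets on design C, at percentiles 85.4 ± 1.3 and 87.8 ± 1.8. Its probe set on design A was not high, at 60.3 ± 2.6. Sdhaf1 was high on design A at 250.2, 256 and 276, but lay at percentile 49.2 ± 2.5 on design C. Sdhaf4 lay at percentile 46.8 ± 2.2, and Sdhaf3 was low with both probe sets, at 4.09 ± 0.51 and 26.2 ± 5.2 (SD, n = 3 each).

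Probe sets of the same gene often disagreed. Of the 44 member genes with more than 1 probe set, 16 (36.4%) had probe sets over 50 percentile points apart, against 35.1% of the 7645 such genes on the arrays, a share near the background. The median gap was 36.7 points for member genes and 37.6 for all. High and low probe sets occurred together in 12 member genes (27.3%), against 24.7% of all. Atp5md, a small membrane subunit of the ATP synthase, read 1559, 1527 and 1373 on design A and 5.80, 4.57 and 6.23 on design C. Cox6b1 was high with its A and C probe sets and low with its B one, at 10.9, 8.01 and 6.10. Ndufb7, a subunit at the outer face of complex I, read 613, 605 and 523 with 1 plain probe set of design A and 10.2, 10.7 and 10.3 with another. These genes were chosen for their gaps, so the values are a description.

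Cox6c, a small ubiquitous subunit of complex IV, read 2881, 2733 and 2506, then 39.4, 37.6 and 36.2, and then 13.3, 12.3 and 14.5 with 3 probe sets of design A. Cox5a, a subunit on the matrix side of complex IV, read 524, 456 and 510.2 on design C, and 32.2, 43.7 and 36.0, and 11.7, 13.6 and 14.9, on design A. Ndufb2, an accessory subunit of complex I, had 5 probe sets between percentiles 9.70 and 97.3, 3 of them high and 2 low. For these 6 genes, whose gaps were the widest, the deposited values alone do not tell which probe set reports the transcript.

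**Figure D3:**
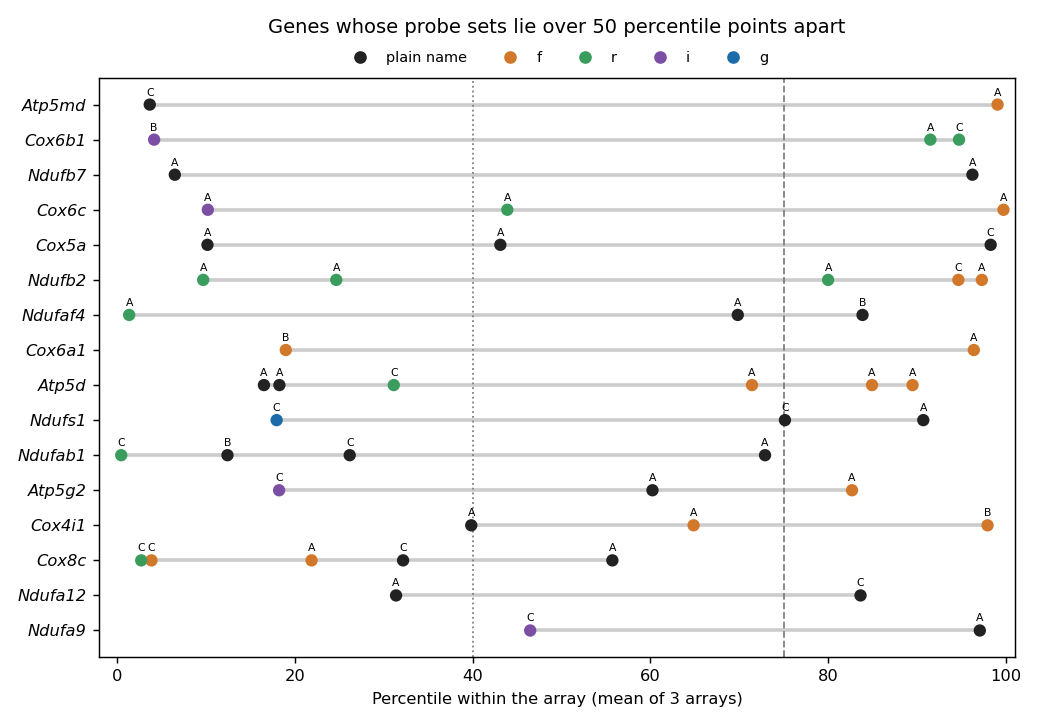
Percentile of each probe set of the 16 member genes whose probe sets lie over 50 percentile points apart, mean of 3 arrays, with the array design written above each point. Colours give the ending of the probe set name, where f marks a set shared between related sequences and r, i and g mark sets built with relaxed, incomplete or grouped probe selection. The dotted and dashed lines are the 40th and 75th percentiles, and Atp5md spans from 3.68 to 99.1.

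The type of probe set moved with the position of members. Probe sets whose names mark them as shared by a family of sequences were high in 17 of 28 cases (60.7%), against 32.7 percent of all such probe sets with 1 symbol. Plain probe sets were high in 38 of 93 (40.9%), against 24.2 percent of all plain ones. Those built with relaxed rules were high in 6 of 22 (27.3%), against 21.9 percent of all such probe sets. None of 9 members marked as incomplete was high, against 14.9 percent of all incomplete ones. Respiratory subunit genes are known to have many processed pseudogenes and copies, which shared probe sets can also detect, and their part in the values was not tested. Members designed on expressed sequence tags of the AV series were high in 9 of 43 cases (20.9%), against 17.9 percent of all such probe sets. Those designed on other named sequences were high in 44 of 91 (48.4%), against 26.6 percent of all. Of the 37 members on design C, 26 are of this AV type (70.3%), against 14 of 103 on design A (13.6%). The part of the source sequence in the lower share of high members on design C was not tested.

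Replicates agreed about as closely for members as for other probe sets. The median SD of centred log2 intensity between replicates was 0.12 for the 156 members and 0.13 for all probe sets. Of 103 members on design A, 43 (41.7%) were highest in replicate 2, against 39.7 percent of all probe sets. Replicate 1 held the highest value of 33 (32.0%) and replicate 3 of 27 (26.2%), against 29.3 and 31 percent of all. Among high probe sets of design A, 19 of 48 members (39.6%) were highest in replicate 1, 20 (41.7%) in replicate 2 and 9 (18.8%) in replicate 3, against 37.8, 50.3 and 11.9 percent of all high ones. In complex III, 7 of 9 probe sets on design A were highest in replicate 2 and none in replicate 3, with median deviations of 0.082 and -0.053 on the log2 scale, against 0.063 and -0.085 for all high probe sets of that design. The 5 widest log2 ranges among members above the 40th percentile were those of Ndufc2, Atp5c1, Atp5j2, Ndufa6 and Cox6b1, given above.

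**Figure D4:**
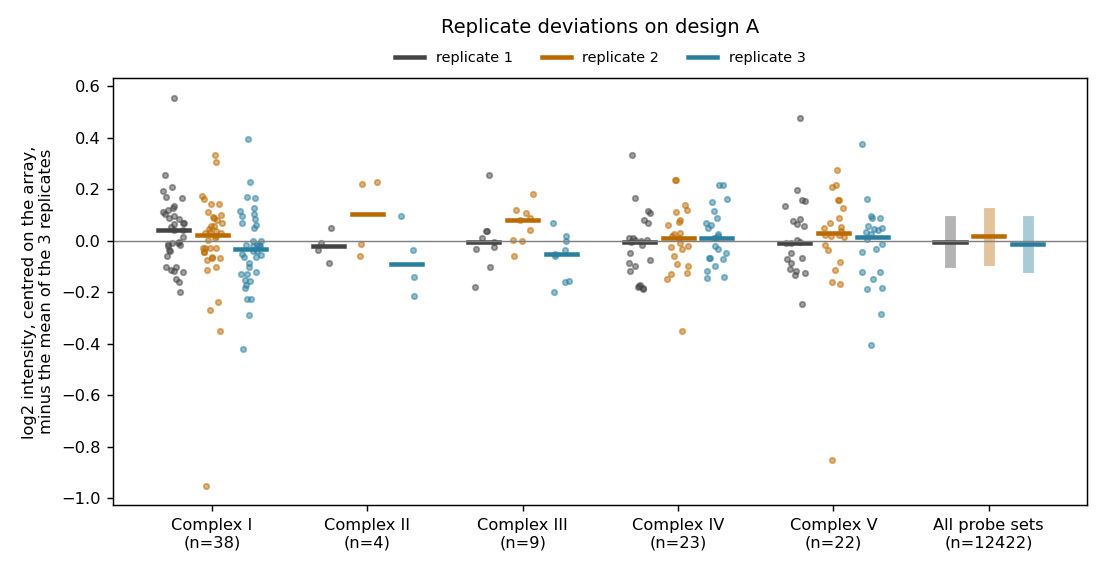
Deviation of each replicate from the mean of the 3 replicates of design A, as log2 intensity centred on the array median, for the member probe sets of complexes I to V (points, with bars for medians) and for all 12422 probe sets (shaded quartiles, with bars for medians). The points at the bottom of complexes I and V are replicate 2 of Ndufc2 and of 1 probe set of Atp5c1.

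Other genes of mitochondrial energy metabolism were set beside the subunits as lists, each described by its counts and median. Assembly factors outside the rule (25 genes) had 10 of 45 probe sets high (22.2%) and 11 low, against 24.2 percent high among probe sets with 1 symbol, with a median percentile of 56.2. Cox17, a copper chaperone of complex IV, lay at 97.1 ± 0.11 and Cox10, which makes its haem A precursor, at 94.6 ± 0.79, whereas Timmdc1, an assembly factor of complex I, lay at 5.78 ± 1.5. Regulators of mitochondrial biogenesis (16 genes) had 11 of 43 high (25.6%) and 14 low (32.6%), with a median of 62.3. These shares were near the 24.2 and 34.4 percent of probe sets with 1 symbol. Yy1 averaged 73.2 ± 2.6 over probe sets at 91.9 and 54.6, and Tfb2m, a mitochondrial transcription factor, lay at 72.1 ± 0.50. Both probe sets of the coactivator gene Ppargc1a were low, with a mean of 19.4 ± 0.45 (SD, n = 3). Ppargc1b of the same list had 1 high probe set, at 97.7, and 1 low, at 30.2.

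Inner membrane carriers and uncoupling proteins, with the outer membrane porins, had 5 of 21 probe sets high and 8 low, with a median percentile of 51.1. The shares, 23.8% high and 38.1% low, were near the 24.2 percent and 34.4 percent of probe sets with 1 symbol. Slc25a4, which exchanges ADP for ATP, lay at 99.2 ± 0.048 and Atpif1, the inhibitor of the ATP synthase, at 98.3 ± 0.20. The 4 probe sets of Ucp1, the uncoupling protein of brown fat, were low, between percentiles 8.82 and 31.8. Enzymes of the citric acid cycle and pyruvate dehydrogenase had 17 of 38 probe sets high (44.7%) and 13 low (34.2%), with a median of 70.3. Glycolytic enzymes had 12 of 26 high (46.2%) and 8 low (30.8%), with a median of 67.9. Both stand against the same 24.2 percent high and 34.4 percent low. The subunits of complexes I to V had 58 of 136 high (42.6%) and 35 low (25.7%), with a median of 65.3. No difference between these lists was tested.

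**Figure D5:**
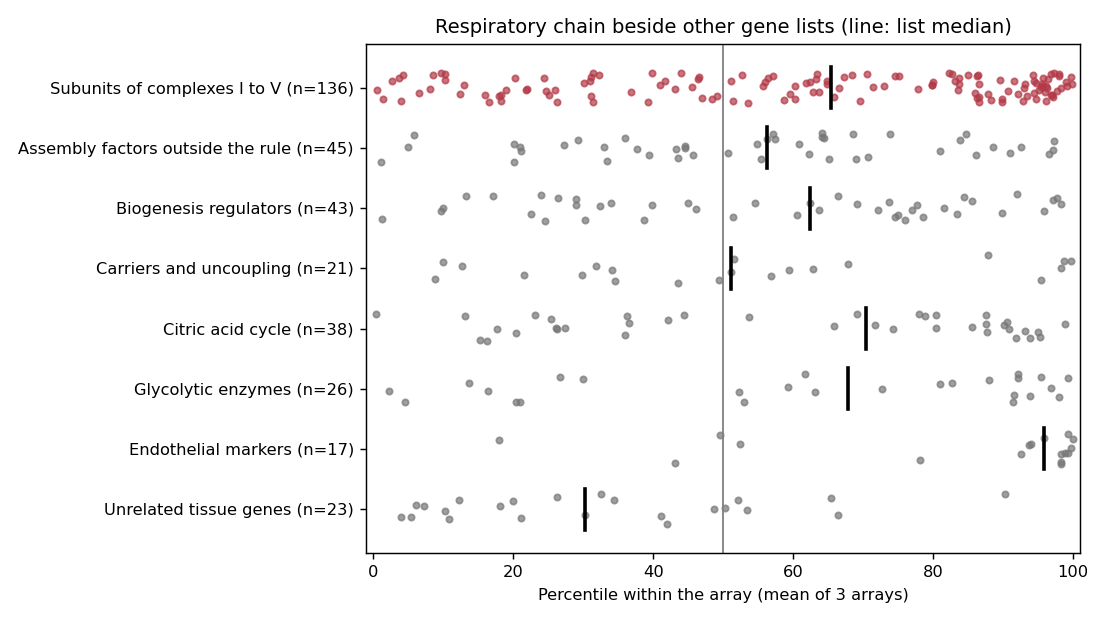
Percentile within the array (mean of 3 arrays) of each probe set of the respiratory chain and ATP synthase subunits (red) and of other gene lists (grey), with a black line at each list's median and a thin grey line at the median of all probe sets, 50.0. The subunits have a median of 65.3, and the endothelial markers of 95.8.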

How the data were processed

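Each of the 3 deposited tables covers 1 array design and gives a linear intensity for every probe set on every array. Per the labels' protocols, sorted-cell RNA was amplified and hybridised as biotin-labelled cRNA. Neither labels nor files state how the authors summarised and scaled these intensities. Genes were named from the platform annotation, and each member's Entrez identifier was matched to RefSeq for GRCm38.p6. There were 724 probe sets with several symbols and 6846 unnamed here. The 16 that name a member gene beside another gene were left out of the counts.

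Percentiles (0 to 100) were computed over all probe sets of an array, and log2 intensities were centred on the array median after 7 values of exactly 0 were raised to the lowest value above 0 on the same array. All probe sets entered, with no filter on low values. For the SD of a median, the same replicate number was pooled over the 3 designs. No label states that such arrays share RNA. The median itself was taken over mean percentiles, so the medians within replicates need not centre on it. The number of arrays limits the precision. The calculations were tested on simulated data and run with Python 3.11.15, pandas 2.3.3 and numpy 2.4.6.

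With 1 condition no test was possible, and lists are described by counts beside those of all probe sets. Members and lists were chosen with earlier results of these data known. Genes named are the 3 highest and the lowest of each complex, all isoform pairs, the 6 widest gaps between probe sets and the 5 widest replicate ranges. The 2 highest and the lowest of the added assembly, regulator and carrier lists were also named. All genes of complexes II and III and of the complex I core were named in addition. So were further accessory subunits of complex I and further subunits of complex V. These were added to describe those groups, after their values were seen, as were Ppargc1b and the genes of the shared probe sets. The word searched for NRF1 was shortened after a longer one had been counted. Alternatives were the use of 1 value per gene, plain probe set names, design A alone, ranks among probe sets with 1 symbol, other thresholds, another treatment of low values and each replicate left out.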

Additional observations from a re-analysis of the deposited data

How the results depend on the processing

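No paired analysis was possible because all arrays belong to 1 condition and the results come from no test. With 1 mean value per gene, the median percentile was 70.3 for complex I, 69.6 for complex II, 93.0 for complex III, 50.9 for complex IV and 57.0 for complex V. With the highest probe set of each gene these medians were 84.9, 85.9, 94.7, 89.6 and 86.1, and the cause of these shifts was not tested. On design A alone they were 77.2 for complex I, 85.9 for complex II, 89.8 for complex III and 70.5 for complex V. Plain probe set names gave 88.2 for complex III, and ranks among probe sets with 1 symbol gave 64.7 for complex I. Without the tissue-restricted isoforms, but with Cox7a2l, complex IV had a median of 84.3. With each replicate left out in turn, the median of complex III ranged from 88.5 to 89.3. Of the 156 members, 34 lay above the 90th percentile on all arrays, against 8.71% of all probe sets, and 97 above the 50th, against 46.4%. Among members with plain names 38 of 93 were high. With 16 added to each intensity the median SD between replicates was 0.088 for members and 0.087 for all probe sets. The placement of Ndufa4 was not run, since no member probe set carries that symbol. The order of the complexes therefore depended on these settings. Complex IV had the lowest median of the 5 with all probe sets and ranked second to complex III with the highest probe set of each gene. Without the restricted isoforms, complex IV lay at 84.3 with Cox7a2l, above complex II (83.6). With the ubiquitous subunits alone it lay at 82.3, below complex II. With 1 mean value per gene, complex I lay above complex II.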

Other observations

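A further 16 probe sets name a member gene beside another gene and entered no count above, since their signal cannot be given to 1 gene. Of these, 7 were high (43.75%) and 5 low (31.25%), against 22.6 and 36.3 percent of all probe sets, with a median percentile of 71.7. Low ones included that shared by Gm35857 and Atp5md on design A, at percentile 18.1 ± 1.8. The one shared by Ndufb2 and Adck2 on design C was low at 23.8 ± 3.8. Those naming Ndufb4 read 22.8, 19.8 and 22.3 on design B and 23.03, 22.51 and 23.67 on design C, both low. On design A the one naming Ndufb4 lay between the classes. Probe sets shared by Cox7c, a ubiquitous subunit of complex IV, and Gm12338 read 2876, 2898 and 2585, and 856, 499 and 687, on design A. A probe set shared by Atp5c1 and its pseudogene read 858, 942 and 794 on design A, all high, like both probe sets that name Atp5c1 alone. A probe set shared by Ndufab1, the acyl carrier protein of complex I, and its pseudogene lay at percentile 94.9 ± 0.21, whereas the 4 probe sets that name Ndufab1 alone lay between percentiles 0.47 and 72.9. The probe sets shared by Ndufs6 and Ndufs6b gave percentiles of 98.0 ± 0.30 and 88.4 ± 0.67 for the design A pair, 88.1 ± 1.3 for the one of design C and 2.14 ± 0.76 for that of design B (SD, n = 3 each).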
